A study of Mus musculus with 9 samples.

Results

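Genes of the contractile and keratin cytoskeleton were followed in mouse germline and pluripotent stem cells. The set was fixed by name and held 10 genes: the actins Acta2 and Actg2, the actin-binding proteins Tagln, Cnn1 and Tpm1, the myosin light chain Myl9, and the intermediate filament proteins Vim, Krt8, Krt18 and Krt19. All probes that the platform annotation gives to these genes were taken, which was 12 of the 25697 probes on the array and covered 9 of the 10 genes. The platform table used here names no probe for Myl9, so its RNA was not analysed.

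RNA was measured on 9 Illumina bead arrays. The labels name the germ stem cells (GSC) unipotent and the series describes them as adult germline cells; they were 4 lines with 1 array each. Germ pluripotent stem cells (gPS) were 3 clonal lines sorted for GFP, also with 1 array each, and embryonic stem cells (ESC) were the pluripotent reference on 2 arrays. The labels name no strain, treatment, passage or culture substrate, do not say what drives GFP, and do not say whether the ESC arrays came from separate cultures. Where they did not, p-values measure a spread that is partly technical.

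Smooth muscle alpha-actin (Acta2) and gamma-actin (Actg2) form the thin filaments of contractile cells, and transgelin, calponin, tropomyosin and the myosin light chain bind them or the myosin that pulls on them. Many of these genes are switched on by serum response factor (SRF), which binds a sequence called the CArG box, together with the actin-sensing MRTF co-activators. Vimentin is the intermediate filament protein of mesenchymal and many cultured cells. Keratins assemble as pairs of a type II chain, such as Krt8, with a type I chain, such as Krt18 or Krt19, and Krt8 with Krt18 is the pair of simple epithelia and of the first embryonic epithelium. Fibroblasts also make Acta2, Tagln, Tpm1 and Vim, and stem cells of these kinds are often grown on fibroblast layers, so markers of fibroblasts are given beside the members.

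The labels held in the marker genes checked. Nanog, a pluripotency factor, was at least 46.9-fold higher in gPS than in GSC, where no array detected it, and Dazl, a germ cell RNA-binding protein, was detected on every GSC array and was at least 148-fold lower in gPS. The median signal was 83.6 to 101 and the number of detected probes 9871 to 11813 per array. The arrays of GSC 1 and GSC 3 stood close together, with an SD of their difference across probes of 0.218 against 0.34 for the ESC pair, so they may not be independent lines. Results that move without them are given both ways.

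Levels below are normalized log2 signals, on which a step of 1 is a 2-fold difference, and a probe counts as detected where its signal exceeds the array's negative controls at p under 0.01. Of the 12 member probes, 10 of 7 genes were detected on at least 2 of the 9 arrays and were tested with 12695 probes in all by limma's moderated test. Cnn1 and Krt19 were not tested. Actg2, Tagln and Krt18, detected on 0, 0 and 1 GSC arrays, entered the test only through the pluripotent arrays, so no count over the tested members is evidence about the set. The same holds for the lists beside the members, where some probes were detected only in GSC or only in pluripotent arrays.

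In gPS 9 of the 10 tested probes, of 6 genes, were higher than in GSC at an adjusted p under 0.05, and 0 were lower. Over all tested probes 25.8% were higher and 28.9% lower in gPS. In ESC 7 of the 10, of 4 genes, were higher than in GSC and 0 lower, against 25.5% higher and 27.7% lower over all probes. The same shares serve as background for the lists counted below. The median change of the members was 2.26 in gPS and 2.34 in ESC, and that of all tested probes was -0.03 and -0.05. The members were chosen with earlier results of these data known, and 4 of their 10 tested probes are of Acta2. The counts and medians are therefore descriptions only. Scaling each array by its median instead moved the median of all probes to -0.36 in gPS and -0.39 in ESC. The split of all calls was then 2042 higher and 5226 lower in gPS, against 3271 and 3667, and 2000 and 5020 in ESC, against 3242 and 3522. The counts of member probes called were the same, 9 and 7. Both comparisons use the same GSC arrays, so they are not independent of each other. In bulk RNA, fewer cells that make a transcript and less of it per cell cannot be told apart.

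**Figure D1:**
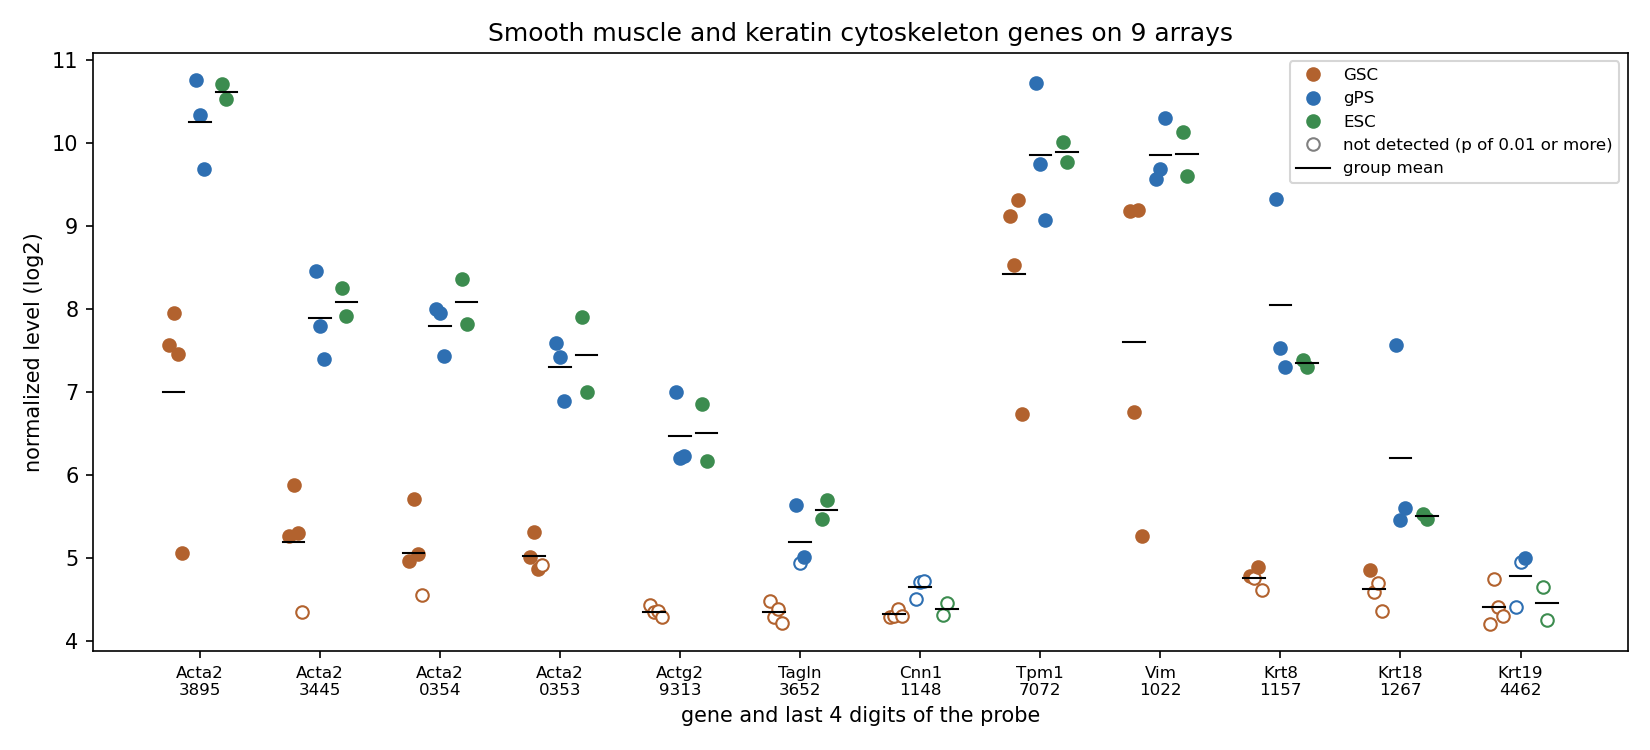
Normalized log2 level of the 12 member probes on each of the 9 arrays, with the 4 GSC arrays, the 3 gPS arrays and the 2 ESC arrays in their own colours, open circles for arrays without detection and black lines for group means. The Acta2, Actg2, Tagln, Vim, Krt8 and Krt18 probes were higher on every gPS and ESC array than on any GSC array. Tpm1 overlapped between GSC and gPS.

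Acta2, the actin of vascular smooth muscle and of myofibroblasts, had 4 probes. The promoter window of Acta2 is shown because SRF acts on this gene through CArG boxes. It covers 250 bases before and 50 after the gene's start in RefSeq (GRCm38.p6, chr19:34255324-34255623, minus strand), read 5′ to 3′, with capitals on the CArG boxes that hold 1 C or G among their inner bases.
Acta2 promoter: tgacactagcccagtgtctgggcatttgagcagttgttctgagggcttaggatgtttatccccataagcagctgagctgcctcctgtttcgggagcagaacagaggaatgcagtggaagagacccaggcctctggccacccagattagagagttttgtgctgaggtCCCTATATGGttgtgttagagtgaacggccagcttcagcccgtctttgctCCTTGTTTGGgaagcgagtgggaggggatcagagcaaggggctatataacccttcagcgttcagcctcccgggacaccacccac
These boxes began at -84 and -34, counted from -1 as the last base before the start, and no CArG box without such a C or G was found on either strand. Of 32851 promoter windows of the same length, 8.5% held a box of the looser kind and 1.63% a strict one. A match is a description of the letters only.

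On the brightest Acta2 probe the level was 7.57, 7.95, 7.46 and 5.06 on GSC 1 to 4, then 10.76, 10.34 and 9.69 on gPS 1 to 3, and 10.72 and 10.53 on ESC 1 and 2. Every pluripotent array lay above every GSC array, and GSC 4 lay far below the other GSC arrays. The GSC mean was 7.01 ± 1.32 (SD, n = 4). The gPS mean was 10.26 ± 0.54 (n = 3), and the ESC mean was 10.62 ± 0.13 (n = 2). The rise was 3.25 in gPS (SE 0.57, 9.52-fold, adjusted p = 0.000691) and 3.61 in ESC (SE 0.65, 12.2-fold, adjusted p = 0.000855). Without GSC 4 these rises were 2.60 (6.06-fold, adjusted p = 3.71e-05) and 2.96 (7.78-fold, adjusted p = 3.92e-05). With GSC 1 and GSC 3 left out together they were 3.75 (13.5-fold, adjusted p = 0.00217) and 4.12 (17.4-fold, adjusted p = 0.00229).

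The other 3 Acta2 probes rose in step with it. Each was undetected on GSC 4 and detected on the other 8 arrays. Probe ILMN_2923445 read 5.27, 5.88, 5.30 and 4.36 on GSC 1 to 4, 8.46, 7.80 and 7.40 in gPS, and 8.26 and 7.92 in ESC. Its groups did not overlap, nor did those of ILMN_2710354 and ILMN_2710353. The changes of these 3 probes were 2.68, 2.72 and 2.28 in gPS (adjusted p from 1.24e-05 to 6.79e-05) and 2.89, 3.02 and 2.42 in ESC (adjusted p from 1.75e-05 to 0.000114). On all 4 probes GSC 2 was the highest GSC array.

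Actg2, the gamma-actin of visceral smooth muscle, was undetected on all GSC arrays, at 4.44, 4.36, 4.37 and 4.30. It read 7.0, 6.21 and 6.23 in gPS and 6.86 and 6.17 in ESC, detected on each of these arrays and with no overlap with GSC. It was at least 3.10-fold higher in gPS (measured change 2.12, SE 0.23, adjusted p = 2.38e-05) and at least 3.17-fold higher in ESC (2.15, adjusted p = 6.18e-05). Such a bound sets each undetected array to its lowest level with detection, or to the probe's own level if that is higher.

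Tagln (transgelin, SM22), an actin-bundling protein and a common early marker of smooth muscle, read 4.49, 4.29, 4.39 and 4.22 on the GSC arrays, where it was undetected. It read 5.64, 4.95 and 5.02 on gPS 1 to 3, with gPS 2 undetected, and 5.47 and 5.70 in ESC. All pluripotent arrays lay above all GSC arrays, by little. It was at least 1.28-fold higher in gPS (measured change 0.85, SE 0.19, adjusted p = 0.00337) and at least 1.67-fold higher in ESC (1.24, SE 0.22, adjusted p = 0.000782).

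Cnn1 (calponin 1), which restrains myosin in differentiated smooth muscle, was detected on none of the 9 arrays, with levels from 4.30 to 4.73. No direction can be given for it at this signal over background.

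Tpm1, a tropomyosin that lines actin filaments in muscle and non-muscle cells, was detected on all 9 arrays. It read 9.13, 8.53, 9.32 and 6.74 on GSC 1 to 4, 10.73, 9.75 and 9.08 in gPS, and 10.02 and 9.77 in ESC. The ESC arrays lay above all GSC arrays, whereas gPS 3 lay below GSC 1 and GSC 3. The difference was 1.43 for gPS (SE 0.56, adjusted p = 0.0508) and 1.46 for ESC (SE 0.64, adjusted p = 0.0737), and neither passed. With GSC 1 and GSC 3 left out together the gPS difference was 2.22 (adjusted p = 0.0105), and without GSC 4 it was 0.86 (adjusted p = 0.0779). For ESC these values were 2.26 (adjusted p = 0.0154) and 0.90 (adjusted p = 0.0959).

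**Figure D2:**
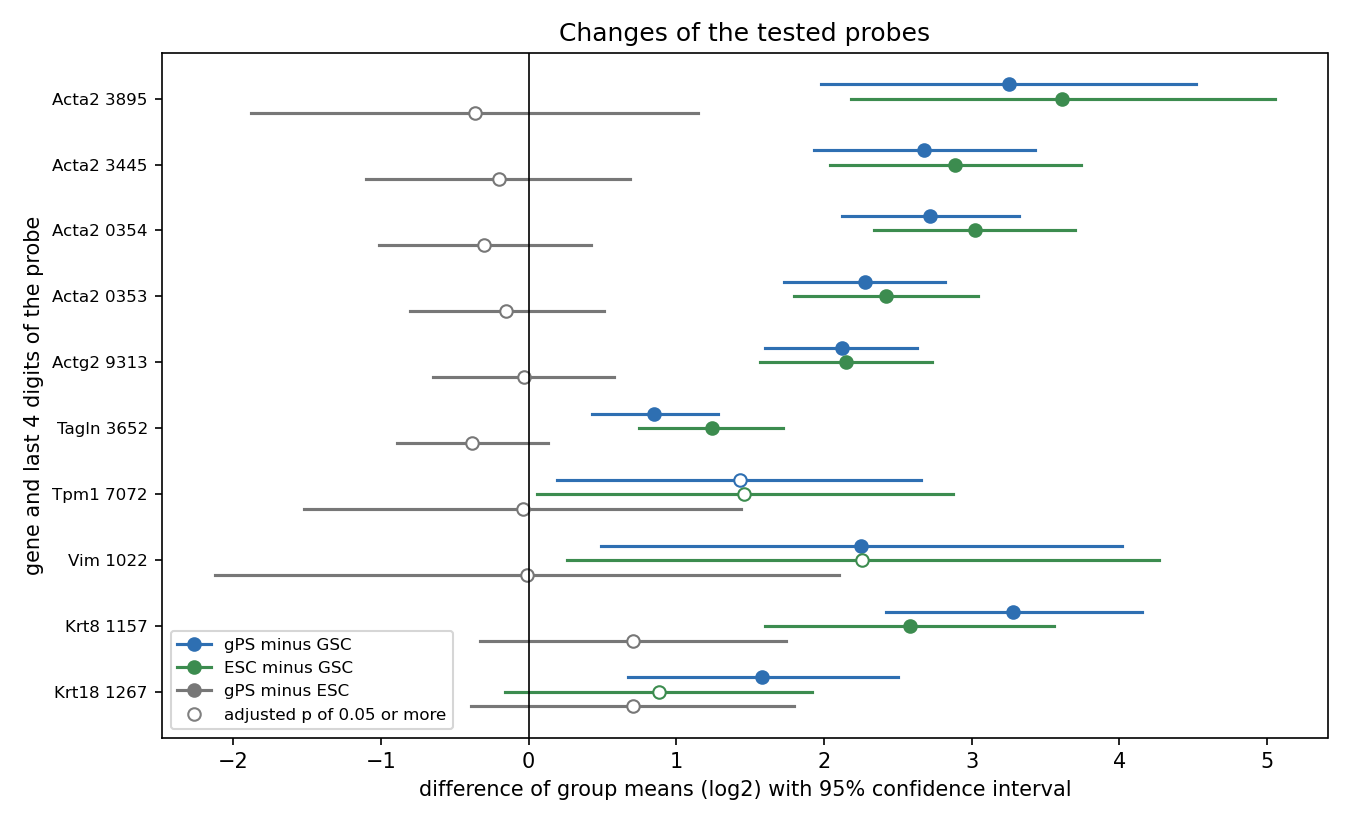
Differences of group means on the log2 scale for the 10 tested member probes in the 3 comparisons, with 95% confidence intervals; filled points passed an adjusted p under 0.05. The intervals of gPS minus ESC all cross 0, and the widest intervals against GSC are those of Vim, the brightest Acta2 probe and Tpm1.

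Vim, whose promoter window is printed for its TATAAA box (RefSeq, GRCm38.p6, chr2:13574061-13574360, plus strand, the box in capitals, starting at -32), was detected on all 9 arrays. TATAAA on either strand was present in 13.6% of the windows.
Vim promoter: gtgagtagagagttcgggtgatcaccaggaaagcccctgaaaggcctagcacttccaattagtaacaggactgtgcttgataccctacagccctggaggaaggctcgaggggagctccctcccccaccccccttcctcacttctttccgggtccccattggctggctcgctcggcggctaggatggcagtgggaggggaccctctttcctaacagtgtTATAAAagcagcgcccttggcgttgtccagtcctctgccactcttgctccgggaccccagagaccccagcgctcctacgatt
Vim read 9.19, 6.76, 9.20 and 5.27 on GSC 1 to 4, 9.57, 9.69 and 10.31 in gPS, and 10.13 and 9.60 in ESC. GSC 1 and GSC 3 came close to the pluripotent arrays without overlap, and GSC 2 and GSC 4 lay far lower. The spread inside GSC, 3.93 from lowest to highest, was matched or passed by 0.15% of all tested probes. Vim was 2.25 higher in gPS (SE 0.80, 4.77-fold, adjusted p = 0.0337), while the difference in ESC, 2.26 (SE 0.91, adjusted p = 0.0556), did not pass.

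The Vim call was sensitive to the arrays included. Leaving out GSC 2 gave 1.97 (adjusted p = 0.0869) and leaving out GSC 4 gave 1.48 (adjusted p = 0.0516), neither a call. Leaving out gPS 1, gPS 2 or gPS 3 kept the difference about as large, at 2.40, 2.34 and 2.03, with an adjusted p of 0.053, 0.0728 and 0.101. With GSC 1 and GSC 3 left out together the difference was 3.84 in gPS (adjusted p = 0.000142) and 3.85 in ESC (adjusted p = 0.000252).

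Fibroblast markers divided the GSC arrays as Vim did, with GSC 1 and GSC 3 high, GSC 2 lower and GSC 4 lowest. Of 28 listed markers 25 had a named probe, 34 probes in all, of which 22 were tested. The mean level of these 22 was 8.12, 6.15, 8.02 and 5.38 on GSC 1 to 4, 6.77, 6.51 and 6.33 in gPS, and 6.27 and 6.10 in ESC. All 22 had their highest level of the 9 arrays on GSC 1 or GSC 3, and 19 had their lowest GSC level on GSC 4. Among them, Lum, the tested Prrx1 probes and Dcn probe ILMN_2596346 were detected on GSC 1 and GSC 3 only. They passed the detection filter through the arrays where they were high, so these counts are partly fixed by the filter. Of the 34 probes, 25, 16, 22 and 12 were detected on GSC 1 to 4, 17, 16 and 16 in gPS, and 14 and 13 in ESC. Col5a2, Postn, Pdgfrb and Fap were detected on no array.

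Col1a1, the main collagen chain of fibroblasts, read 8.31, 6.62, 8.33 and 5.36 on GSC 1 to 4, 7.39, 6.22 and 6.0 in gPS, and 6.18 and 6.15 in ESC. It did not pass in gPS against GSC (-0.62, SE 0.64, adjusted p = 0.437). Col1a2 and Col3a1 probe ILMN_1258629 were each detected on 1 of the 9 arrays. Col3a1 probe ILMN_2683958 was detected on 0, so neither gene was tested. Of the 22 marker probes 0 were higher and 3 lower in gPS than in GSC, with a median difference of -0.28, and the same numbers stood in ESC with a median of -0.91. The lower ones in gPS were Pdgfra (at least 3.12-fold), Twist1 (-0.96, adjusted p = 0.000549) and Col5a1 (-1.34, adjusted p = 0.00477).

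Set side by side on the arrays, the members and the markers had these differences. From GSC 4 to GSC 1 the median fibroblast marker was 2.95 higher, Vim 3.91, the brightest Acta2 probe 2.51 and Tpm1 2.39. No such difference is given for Krt8, Actg2 and the other Acta2 probes, which were undetected on GSC 4. On that array the brightest Acta2 probe read 5.06 and Vim 5.27, near its lowest level with detection, 4.94. Of the 34 marker probes 12 were detected on GSC 4. The median marker's differences from GSC 4, here and below, are therefore limited by background. Those of Vim and this Acta2 probe rest on GSC 4 levels near it. From GSC 2 to GSC 1 the median marker was 1.79 higher and Vim 2.42, whereas this Acta2 probe was 0.39 lower on GSC 1. From GSC 1 to the gPS mean the median marker was 1.19 lower, while Vim was 0.67 higher, Tpm1 0.72, this Acta2 probe 2.69 and Krt8 3.26. Against GSC 4, the GSC array with the fewest detected fibroblast probes, the gPS mean stood 1.12 higher for the median marker, 4.59 for Vim and 5.20 for the same Acta2 probe. What part RNA of fibroblasts had in the levels of Vim, Tpm1 and Acta2 was not tested.

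**Figure D3:**
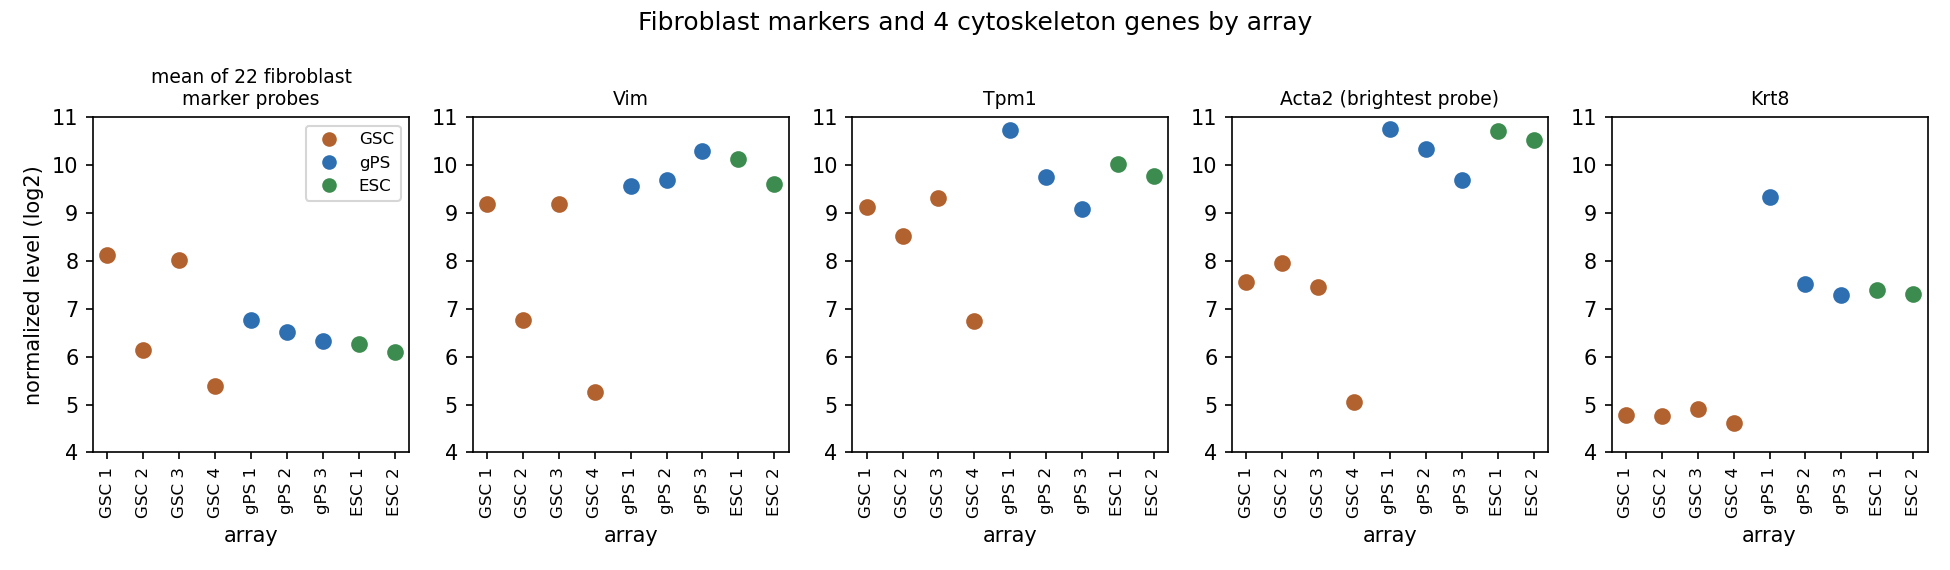
Log2 level on each of the 9 arrays for the mean of 22 fibroblast marker probes and for Vim, Tpm1, the brightest Acta2 probe and Krt8, 1 point per array, coloured by group. GSC 1 and GSC 3 are the highest arrays for the fibroblast mean (8.12 and 8.02). They lie below all gPS and ESC arrays for Vim, Acta2 and Krt8. For Tpm1 they lie above gPS 3 (9.13 and 9.32 against 9.08).

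Krt8 and Krt18, the keratin partners of simple epithelia, are shown with their promoter windows because both were highest on the array of gPS 1. Both windows are from RefSeq (GRCm38.p6), Krt8 at chr15:102004293-102004592 on the minus strand and Krt18 at chr15:102027966-102028265 on the plus strand. Capitals in Krt8 mark TATAAA on both strands, overlapping at the gene's start. The Krt18 window held none of the 5 motifs searched on both strands. These were the strict and the looser CArG box, TATAAA, the Sp1 motif GGGCGG and, for AP-1, TGANTCA.
Krt8 promoter: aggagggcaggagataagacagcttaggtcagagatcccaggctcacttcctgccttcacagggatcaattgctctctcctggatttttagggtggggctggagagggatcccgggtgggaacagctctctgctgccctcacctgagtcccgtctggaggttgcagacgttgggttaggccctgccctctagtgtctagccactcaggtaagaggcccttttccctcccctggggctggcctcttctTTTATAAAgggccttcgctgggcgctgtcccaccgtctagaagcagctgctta
Krt18 promoter: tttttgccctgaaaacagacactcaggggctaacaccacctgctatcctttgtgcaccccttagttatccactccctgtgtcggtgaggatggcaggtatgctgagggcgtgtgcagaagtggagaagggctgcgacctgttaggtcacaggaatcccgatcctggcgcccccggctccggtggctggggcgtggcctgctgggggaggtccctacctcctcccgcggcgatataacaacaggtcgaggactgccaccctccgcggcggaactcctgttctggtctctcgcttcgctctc
The Sp1 motif was present in 35.7% and the AP-1 motif in 7.81% of all windows.

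Krt8, the type II chain, read 4.79, 4.77, 4.90 and 4.62 on GSC 1 to 4, with detection on GSC 1 and GSC 3 only. It read 9.33, 7.53 and 7.30 on gPS 1 to 3 and 7.39 and 7.31 in ESC. All pluripotent arrays lay well above GSC, and gPS 1 stood above the other 4 of them. The measured rise was 3.28 in gPS (SE 0.39, at least 9.06-fold, adjusted p = 4.32e-05) and 2.58 in ESC (SE 0.44, at least 5.55-fold, adjusted p = 0.000638), the bounds being set for the 2 GSC arrays without detection. Without gPS 1 the measured gPS rise was 2.64 (adjusted p = 1.46e-06).

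Krt18, the type I chain, read 4.86, 4.59, 4.70 and 4.37 on GSC 1 to 4, with detection on GSC 1 only. It read 7.57, 5.46 and 5.61 in gPS and 5.54 and 5.48 in ESC, again without overlap and again with gPS 1 far above the rest. The measured rise of 1.58 in gPS passed (SE 0.42, at least 2.53-fold, adjusted p = 0.00774), and without gPS 1 it was 0.91 (adjusted p = 0.00197). The ESC difference of 0.88 (SE 0.47, adjusted p = 0.137) did not pass, though without gPS 1, which enters the shared estimate of the spread, its adjusted p was 0.0022. The range inside gPS was 2.03 for Krt8 and 2.10 for Krt18, sizes that 1.32% and 1.13% of all tested probes reached.

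Krt19, a type I chain of simple and ductal epithelia, was detected on gPS 3 alone, at 5.0. Its levels on the 9 arrays ran from 4.21 to 5.0, and it was not tested.

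Other keratins moved in both directions. Of 7 tested keratin probes outside the set, 2 were higher, 2 lower and 3 did not pass in gPS against GSC, with a median difference of 0.11. Over all tested probes 25.8% were higher and 28.9% lower, so this split is no result about keratins. Krt42 and Krt12, described below, passed the detection filter only through the groups where they were high. In ESC 3 were higher and 2 lower, with a median of 0.22, against 25.5% higher and 27.7% lower over all tested probes. Krt42, a type I keratin of mouse, was undetected in GSC and read 8.16, 8.84 and 7.46 in gPS, at least 9.9-fold higher, and at least 16.4-fold higher in ESC. Krt17, a type I keratin of basal and wounded epithelia, read 4.84 to 5.14 in GSC and 7.44, 8.73 and 7.12 in gPS, a rise of 2.78 (SE 0.32, adjusted p = 3.74e-05). Here gPS 2, not gPS 1, was the highest gPS line.

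Krt12, the type I keratin of the cornea, ran the other way, from 6.48 to 7.33 in GSC to no detection in gPS, at least 3.33-fold lower. Krt10, a type I keratin of the upper epidermis, fell by 0.90 (adjusted p = 0.00844). Krt4, Krt5, Krt6a, Krt15, Krt16 and Krt20, keratins of stratified or gut epithelia, were detected on no array.

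**Figure D4:**
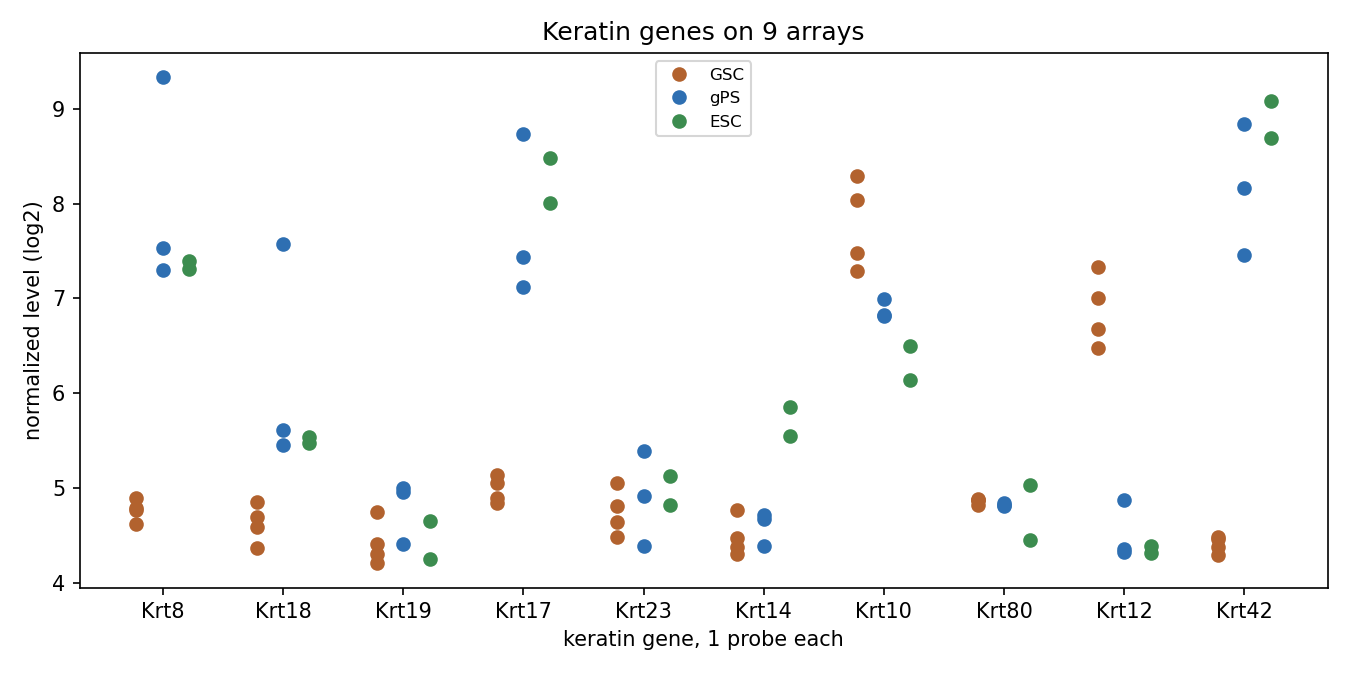
Log2 level of Krt8, Krt18, Krt19 and the 7 other tested keratin probes on each of the 9 arrays, coloured by group. Krt8, Krt18, Krt17 and Krt42 are above GSC on all gPS and ESC arrays, and Krt12 and Krt10 are below. The array of gPS 1 stands alone at 9.33 for Krt8 and 7.57 for Krt18.

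Between gPS and ESC 0 of the 10 member probes passed, and 0 had an unadjusted p under 0.05. Over all tested probes 0.457% were higher and 0.677% lower in gPS. The intervals leave room for sizeable differences. The 95% interval of gPS minus ESC was -1.88 to 1.15 for the brightest Acta2 probe, -0.65 to 0.58 for Actg2, -0.89 to 0.13 for Tagln, -1.52 to 1.44 for Tpm1 and -2.12 to 2.10 for Vim. For Krt8 it was -0.33 to 1.74 around a difference of 0.71, and for Krt18 -0.39 to 1.80 around 0.71. In the lists beside the members, 3 genes with a call in this comparison are named after their values were seen. Acta1, the skeletal muscle actin, was at least 1.37-fold higher in gPS (adjusted p = 0.0127), Krt14 at least 1.47-fold lower (adjusted p = 0.0323) and Esrp1, an epithelial splicing factor, lower by 1.69 (adjusted p = 0.0259). Acta1 was detected on the gPS arrays only and Krt14 on the ESC arrays only. Each passed the detection filter only through the group where it was high, so these calls are partly fixed by the filter.

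Further smooth muscle genes were mixed. Of 13 tested probes, 9 were higher, 3 lower and 1 did not pass in gPS (median 0.97), and 4 were higher and 3 lower in ESC (median 0.63). Tpm2, the beta-tropomyosin, rose by 2.13 (SE 0.33, adjusted p = 0.000297) and Smtn (smoothelin), a protein of contractile smooth muscle, by 1.46 (SE 0.28, adjusted p = 0.00114). Mylk, the kinase that activates smooth muscle myosin, was at least 2.16-fold lower in gPS. Synm, an intermediate filament protein of muscle, was at least 2.18-fold lower on probe ILMN_1214880, detected in GSC only. Its other probes were not tested. ILMN_2636266 was detected on no array, and ILMN_3053693 had a mean of 4.59 in GSC and 4.95 in gPS without detection in either group. Myh11, the smooth muscle myosin heavy chain, and Myocd, the co-activator that drives smooth muscle differentiation, were undetected on all 9 arrays, as were Lmod1, Synpo2, Mustn1 and Kcnmb1.

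Targets of SRF and MRTF outside the set mostly did not pass. Of 13 probes, 1 was higher, 2 lower and 10 not passed in gPS (median 0.39), and 2 were higher, 3 lower and 8 not passed in ESC (median 0.46). Junb rose by 1.77 in gPS (adjusted p = 0.00477), while Egr1 fell by 1.00 (adjusted p = 0.0305) and Zyx by 0.49 (adjusted p = 0.0226). The probes of Srf itself differed by 0.45 (adjusted p = 0.165) and 0.05 (adjusted p = 0.874).

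Among actin, tropomyosin, calponin and myosin light chain relatives, 9 of 18 probes were higher and 1 lower in gPS (median 0.70), and 9 were higher and 3 lower in ESC (median 0.77). Myl6, the light chain of non-muscle and smooth muscle myosin, rose by 2.24 (SE 0.39, adjusted p = 0.00064), and Myl6b was at least 1.58-fold lower. Of 5 probes of Actb, the general cytoplasmic actin, 1 passed in gPS (1.07, adjusted p = 0.00181) and the others differed by 0.06 to 0.38. In ESC its probes disagreed, since 1 rose by 1.15 while ILMN_2588055 and ILMN_2846865, undetected there, were at least 2.91-fold and 3.29-fold lower.

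Of 19 probes of other intermediate filament genes, 12 were higher and 2 lower in gPS (median 1.19), and 8 and 3 in ESC (median 0.91). The lamin gene Lmnb1 led with rises of 2.73 and 2.41 on its probes. On probe ILMN_2703267 Nes (nestin), which pairs with vimentin, fell by 0.91 (adjusted p = 0.0265). Its other tested probe had a mean of 5.3 in GSC and 5.06 in gPS. Of 21 epithelial probes, 14 were higher and 2 lower in gPS (median 1.15), and 15 and 1 in ESC (median 0.90). Over all tested probes 25.8% were higher and 28.9% lower in gPS, and 25.5% and 27.7% in ESC. Cldn6, Pkp3, Ovol1 and the St14 and Dsg2 probes were undetected on all GSC arrays. They entered the test only through the pluripotent arrays, so the epithelial counts are partly fixed by the filter. Cldn4, a tight junction claudin, rose by 4.96 and Cdh1 (E-cadherin) by 4.18 as measured. These were detected on 2 and 1 of the 4 GSC arrays, so the sizes rest partly on background levels. Cldn6 was at least 19.3-fold higher, and Ocln (occludin) was at least 1.96-fold lower.

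Of 15 trophoblast probes, 5 were higher and 2 lower in gPS (median 0.26), and 8 and 1 in ESC (median 1.02). Peg10 was at least 4.66-fold higher and Tfap2c rose by 1.68. Tfap2a probe ILMN_2764846, detected in GSC only, was at least 1.33-fold lower, and Gata2 fell by 0.72. Elf5, Hand1, Esx1 and Plac1 were detected on no array. Of 9 Sertoli and peritubular cell probes, 2 were higher and 3 lower in gPS (median 0.01), and 0 and 3 in ESC (median -0.40). Wt1, a Sertoli cell factor, fell by 2.69, while Clu rose by 1.14 and Trf by 0.88. Of the same list Sox9, Amh, Gata1, Nr5a1, Shbg, Inmt, Nr2f2, Cyp17a1 and Star were detected on no array, and Gata4 and Dhh on 1 each. Of 15 probes of TGF-beta response genes, 0 were higher and 3 lower in gPS (median -0.25), and 1 and 5 in ESC (median -0.43). Zeb1 and Snai1, repressors of epithelial genes, fell by 1.89 and 1.43. The part of trophoblast, Sertoli or peritubular cells in the members' levels was not tested.

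The probes whose profile over the 9 arrays lay closest to a member's were found by the root mean square difference of levels centred on each probe's mean, over the 11953 to 11956 tested probes of other genes with 1 symbol. For the brightest Acta2 probe they were Tuba1a (0.33), Sfxn1 (0.43), Trim8 (0.48), Gsta4 (0.49) and Manba (0.52). Tuba1a read 8.50, 9.16, 8.46 and 6.60 on GSC 1 to 4, with GSC 2 highest and GSC 4 lowest as for Acta2. For Vim they were Tmsb4x (0.33), Glmp on separate probes (0.43 and 0.53), Timp1 (0.48) and Pcolce (0.49), and Tmsb4x read 10.92, 8.42, 11.07 and 7.55 on GSC 1 to 4. For Krt8 they were Echdc2 (0.37), Snrpn (0.41), Tnfrsf21 (0.43), Ubqln4 (0.48) and Lpar6 (0.49).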

How the data were processed

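RNA was purified on Qiagen RNeasy columns, turned into biotinylated cRNA (TotalPrep) and put on 1 array per sample, per the labels. BeadStudio 3.2, RMA and lumi are the tools in the submitters' processing notes. The authors deposited an intensity for each probe, without normalization between arrays, and a detection p-value against negative controls, per the file headers. The authors' processed table was taken as log2 (median 2.99, maximum 14.5), since its base is not given in the sources used here.

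Background correction, quantile normalization and the log2 transform were done by neqc (offset 16) of limma 3.58.1 in R 4.3.3. The detection filter asked for p under 0.01 on 2 or more of the 9 arrays. For every probe, 1 limma model with 3 group means was fitted to the 9 arrays, and p-values were adjusted (Benjamini-Hochberg) over the 12695 probes. The number of arrays limits the precision. The method was tested on simulated data.

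Symbols came from the platform annotation (23978 probes with 1 symbol). Members and the 11 lists beside them (smooth muscle, SRF and MRTF targets, actin and myosin relatives, other keratins, other intermediate filaments, epithelium, trophoblast, fibroblasts, Sertoli and peritubular cells, TGF-beta response, label checks) were chosen with earlier results of these data known. Named beside the members were, per list, up to 2 rises and 2 falls called in gPS against GSC, a set of always named genes (Nanog, Pou5f1, Dazl, Col1a1, Col1a2, Col3a1, Cdh1, Actb, Srf), and the 5 closest profiles. Pou5f1, which passed on both of its probes, and Sohlh1 were not described further. Twist1, undetected genes and genes called between gPS and ESC were named beyond this rule. Deviations from the group mean correlated at -0.18 to 0.08 between same-numbered arrays, counting the ESC replicates by their numbers. Between arrays of unlike number they correlated at -0.21 to 0.21. Deviations inside such small groups are tied to each other, so these values cannot decide whether same-numbered lines share an origin. The numbers were not used as pairs. Promoter windows were matched for 7 of the 10 members.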

Additional observations from a re-analysis of the deposited data

Results flagged for a closer look

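Of 28 probes whose 4 GSC arrays were examined for 1 array standing far from the rest, 4 had one, where chance gives about 1 in 20. On the brightest Acta2 probe GSC 4 was low, at 5.06. An Actb probe was high on GSC 4, at 11.81. The other 2 were below detection on the arrays concerned, Cnn1 on GSC 3 at 4.39 and Nanog on GSC 1 at 4.57. The cause was not tested.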

How the results depend on the processing

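The alternatives varied the background correction, the scaling, the source of values (the authors' processed table), the detection filter, the probes per gene, the arrays in the fit, the variance model, the call rule and the arrays left out. The changes of the Acta2 probes, Actg2 and Krt8 against GSC, in gPS and in ESC, kept their direction and their call under every alternative run, with adjusted p of at most 0.0168, as did Tagln in ESC. In gPS Krt18 kept its direction and call too, with adjusted p of at most 0.0391, and so did Tagln, with adjusted p of at most 0.0161, except that Tagln (0.85) misses a minimum of 1 on the log2 scale. Counts of members called were 8 to 10 in gPS when 1 array was left out and 7 to 9 in ESC. They moved by construction with fewer probes tested: 3 of 3 in gPS and 1 of 3 in ESC with detection required on all 9 arrays, and 4 of 7 in ESC with 1 probe per gene. Between gPS and ESC the count stayed 0 throughout.

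The measured size of dim probes varied with the processing. Without background correction, the gPS change was 0.91 for Actg2, 0.33 for Tagln and 0.72 for Krt18, and in the authors' values, which differ in the whole processing, it was 4.17, 2.40 and 2.80. Vim in gPS was not called in the authors' values (2.51, adjusted p = 0.0701) or without a detection filter (adjusted p = 0.13). Vim in ESC passed with an intensity trend (adjusted p = 0.0493) and without GSC 1 or GSC 3 (adjusted p = 0.0208 and 0.0205), as it did with these arrays averaged (adjusted p = 0.021). Tpm1 in gPS passed without GSC 1, GSC 3 or gPS 3 (adjusted p = 0.0393, 0.0292 and 0.0333), with GSC 1 and GSC 3 averaged (0.0345), with an intensity trend (0.0446) and with detection required on all 9 arrays (0.0461). Tpm1 in ESC passed without GSC 3 (adjusted p = 0.0427) and with GSC 1 and GSC 3 averaged (0.0492). Krt18 in ESC passed when only the compared groups were fitted (adjusted p = 0.00302). The causes of these changes in calls were not tested.

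Whether same-numbered lines pair was not settled. With the number as a replicate block the calls were 9 in gPS, 8 in ESC and 0 between gPS and ESC, and Vim in ESC passed (1.80, adjusted p = 0.0188). Differences between gPS and ESC that changed sign were never called. With the replicate block Actg2 was 0.03 and Tpm1 0.07, and with median scaling Actg2 was 0.01. With 1 array left out, Acta2 ranged from -0.49 to 0.04 on probe ILMN_2923445 and from -0.60 to 0.31 on ILMN_2710353, Actg2 from -0.38 to 0.31, Tpm1 from -0.48 to 0.35 and Vim from -0.27 to 0.26. Calls between gPS and ESC over all probes fell from 58 higher and 86 lower to 2 and 7 when only these groups were fitted.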
